A study of Mus musculus with 60 samples.

Results

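The 9 genes described here are Ubd, Muc13, Sprr1a, Fosl1, Fam83a, Meltf, Ttc39a, Vmn2r51 and Gal3st1, rows of a table of liver RNA counts in mice. They were selected on their measured values, as genes that were higher under a diet high in fat and sugar (HF/HS) than under a control diet in both sexes after 20, 40 and 60 weeks. The table had 24982 gene entries, 14180 of them had enough counts to be tested, and all 9 genes were among these. By a Benjamini-Hochberg adjusted p under 0.05 in edgeR's quasi-likelihood test, 185 of the 14180 genes were higher in all 6 diet comparisons and 124 were lower in all 6, so the 9 genes are part of a larger set. Since the selection used the diet difference itself, that difference, and its comparison between sexes and times, is described below without a test of the 9 genes, and tests of them are kept for age on each diet, for sex and for covariation between livers. Calls for age are given as a description only.

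Livers came from 60 mice of the genotype CC042/GeniUnc, an inbred strain of the Collaborative Cross, and the labels name no other allele. Males and females received either an HF/HS diet rich in milkfat and sucrose with added cholesterol, or a control diet made of matched ingredients with little fat and less sucrose. They were fed for 20, 40 or 60 weeks, with 5 animals in each of the 12 groups. The model is limited to 1 strain, and time on the diet and age of the animal rise together and cannot be told apart. RNA was taken from whole liver, so in all values below a change in the number of cells of a type and a change in RNA per cell cannot be told apart.

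Library totals ran from 10923963 to 20942463 counts. Hepatocyte markers such as Alb and Apoa1 were high in every library, with a summed level of the 13 listed genes between 22907 and 44213 normalised counts (CPM, scaled to library size). The libraries that stood apart from their groups were 4: animal 373 among the male and animal 383 among the female controls of 20 weeks, animal 31 among the female controls of 60 weeks, and animal 91 among the males fed HF/HS for 60 weeks. Animal 91 had the lowest level of its group for all 9 genes, and animal 373 had the highest of its group for 5 of them, Ubd, Fam83a, Meltf, Ttc39a and Gal3st1. Results that rest on these libraries are given with and without them. Animal numbers at 20 and 60 weeks fell into a low and a high range whose meaning the labels do not give; within these ranges the mean of the HF/HS livers was above that of the controls for 9 of 9 genes in 7 of 8 comparisons and for 8 of 9 in the last, the high range of females after 60 weeks, with 1 HF/HS and 2 control livers.

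A diet rich in fat and sugar leads in mice to steatotic liver disease, in which hepatocytes fill with lipid droplets and inflammation, cell death, scarring and a ductular reaction of bile duct cells may follow. Few of the 9 genes are typical of a healthy adult liver. Ubd encodes FAT10, a ubiquitin-like modifier that marks proteins for the proteasome and responds to tumour necrosis factor and interferon-gamma. Fosl1 encodes Fra-1, a subunit of the transcription factor AP-1, and Fam83a encodes a scaffold protein of growth factor signalling. Muc13 encodes a transmembrane mucin of epithelial surfaces, Sprr1a a small proline-rich protein of the cornified envelope, Meltf the membrane-anchored transferrin homologue melanotransferrin, and Gal3st1 the sulfotransferase that makes sulfatide. Vmn2r51 belongs to the type 2 vomeronasal receptors, which sense pheromones, and Ttc39a encodes a tetratricopeptide repeat protein of little known function.

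The genes lie on 8 chromosomes in GRCm38 (mm10). Promoter windows from RefSeq (GRCm38.p6) were found for 7 of the 9 genes, 10 windows in all. The 250 bases before the start of 4 genes are shown because their windows held matches to elements of inflammatory or growth signalling. Each is written 5′ to 3′ on the strand of the gene, ending at the base before the start, and capitals mark matches to AP-1 (TGANTCA), NF-kappaB, a GAS element (TTCNNNGAA), an IRF element (GAAANNGAA) or a TATA box (TATAAA), searched on both strands.
Ubd, chr17:37193642-37193891, plus strand: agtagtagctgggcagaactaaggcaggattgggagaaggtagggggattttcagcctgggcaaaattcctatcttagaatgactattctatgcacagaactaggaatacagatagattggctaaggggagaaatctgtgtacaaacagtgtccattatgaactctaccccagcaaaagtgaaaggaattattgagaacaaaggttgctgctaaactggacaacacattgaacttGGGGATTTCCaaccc
Muc13, chr16:33793787-33794036, plus strand: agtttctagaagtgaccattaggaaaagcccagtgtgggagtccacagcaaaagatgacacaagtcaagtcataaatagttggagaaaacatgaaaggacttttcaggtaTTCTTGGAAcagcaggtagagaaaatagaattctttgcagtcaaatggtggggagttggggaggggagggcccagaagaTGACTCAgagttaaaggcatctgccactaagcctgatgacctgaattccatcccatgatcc
Sprr1a, chr3:92485882-92486131, minus strand: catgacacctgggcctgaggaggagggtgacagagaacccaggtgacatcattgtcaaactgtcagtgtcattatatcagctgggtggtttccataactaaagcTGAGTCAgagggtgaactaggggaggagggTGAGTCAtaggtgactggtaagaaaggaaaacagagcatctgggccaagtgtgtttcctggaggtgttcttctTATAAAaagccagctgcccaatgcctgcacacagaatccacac
Vmn2r51, chr7:10105660-10105909, minus strand: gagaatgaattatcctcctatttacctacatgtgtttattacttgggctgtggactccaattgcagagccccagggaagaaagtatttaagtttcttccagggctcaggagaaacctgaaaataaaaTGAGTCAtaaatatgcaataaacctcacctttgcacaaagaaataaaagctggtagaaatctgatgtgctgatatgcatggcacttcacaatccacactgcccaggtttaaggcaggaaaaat
The windows searched ran from 250 bases before the start to 50 bases after it. The Ubd window held the only NF-kappaB match among the 10 windows, 15 to 6 bases before the start. Of all 32851 windows of that longer length, 5.93% held such a match. Sprr1a had AP-1 matches 146 to 140 and 116 to 110 bases before the start and a TATA match 43 to 38 bases before it. Muc13 had an AP-1 match 61 to 55 bases and a GAS match 140 to 132 bases before this start, and Vmn2r51 an AP-1 match 123 to 117 bases before its own. Another Muc13 window, not shown, had an AP-1 match 179 to 173 bases before its start. AP-1 matches were in 4 of the 10 windows and 6.75% of all, GAS matches in 1 and 7.02%, and TATA matches in 1 and 12.4%. IRF matches were in 0 of the 10 windows and in 7.13% of all. Also searched, and left in lower case, were a TEAD element (GGAATG, in windows of Ttc39a and Gal3st1 and 12.6% of all), a C/EBP element (TTGCNCAA, Vmn2r51, 2.61%), an HNF4 site (CAAAGTC, Muc13, 3.84%) and a CCAAT box (CCAAT, 5 of the 9 genes, 33.8%). A match describes these letters and not binding by a factor.

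Ubd, the gene of FAT10 (chromosome 17, 37193892 to 37196095), was low on the control diet and higher on the HF/HS diet at each time. In males after 20 weeks the control livers held 0, 0.0716, 0.149, 0.353 and 0.532 CPM and the HF/HS livers 1.15, 1.75, 1.96, 2.57 and 3.24 CPM. After 40 weeks these were 0.526, 0.656, 0.944, 0.959 and 1.15 CPM against 6.71, 7.56, 7.77, 9.79 and 24.1 CPM. After 60 weeks they were 0, 0.359, 0.654, 0.840 and 1.15 CPM against 1.26, 4.41, 8.72, 8.90 and 9.71 CPM. The male groups did not overlap at any time, although animal 91, at 1.26 CPM, came close to the highest control.
In females after 20 weeks Ubd had 0 counts in all 5 controls and 0.145, 0.337, 0.350, 0.439 and 0.671 CPM on the HF/HS diet. After 40 weeks 3 controls were at 0 and the other 2 at 0.0666 and 0.0703 CPM, while the HF/HS livers held 2.10, 2.54, 2.92, 4.60 and 6.56 CPM. After 60 weeks the controls held 0, 0, 0.0606, 0.0876 and 0.144 CPM and the HF/HS livers 2.21, 3.62, 4.29, 6.03 and 22.9 CPM. The female groups did not overlap either, and at 60 weeks a single liver, animal 122, stood far above the rest. Summed over 5 livers, the HF/HS level of females was at least 11.2-fold above the controls after 20 weeks (30 against 0 counts, with 3 counts over the group as the floor) and 122-fold above them after 40 weeks (330 against 2 counts, exact 95% interval 33.5 to 1011). Bounds and intervals of this kind speak of counting error alone.

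Fosl1, the AP-1 subunit gene (chromosome 19, 5447547 to 5455946), had the fewest counts of the 9 on the HF/HS diet, 106 over 15 male and 125 over 15 female livers. Its HF/HS livers ranged from 0.0674 to 2.48 CPM in males and from 0.183 to 0.825 CPM in females. Of the 15 female control livers 1 held a single count. Over groups, HF/HS females were at least 11.8-fold higher after 40 weeks (48 against 0 counts) and at least 12.1-fold higher after 60 weeks (49 against 0 counts), and HF/HS males at least 5.72-fold higher after 20 weeks (19 against 0). After 60 weeks a single male, animal 101, held 2.48 CPM and the next 0.636 CPM. The male 60-week diet difference was a log2 fold change of 2.59 ± 0.71 (standard error, derived from the F statistic of the test). This difference was 1.37 without animal 101 and 4.21 without control animal 21. The male 40-week difference, 2.49 ± 1.01, rested on 20 against 3 counts and was 2.20 to 2.69 when single libraries were left out. The gene overlaps Ccdc85b on the other strand by 2767 bases, and its reads are uncertain because the sources used here do not say whether counting used strand; Ccdc85b itself was called in 0 of the 6 diet comparisons.

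Fam83a, the growth factor scaffold gene (chromosome 15, 57985419 to 58011009), had the highest total count of the 9 on the HF/HS diet, 2113 over 15 male and 4036 over 15 female livers, against 236 and 156 in controls. Male control livers held 0.0706 to 0.599 CPM after 20 weeks, 1.68 to 2.88 CPM after 40 weeks and 0.308 to 1.56 CPM after 60 weeks. On the HF/HS diet males held 1.37, 1.48, 1.91, 2.77 and 5.22 CPM after 20 weeks, 9.30, 13.4, 14.1, 15.5 and 26.5 CPM after 40 weeks and 1.01, 9.21, 11.2, 11.3 and 11.7 CPM after 60 weeks. The groups overlapped only after 60 weeks, through animal 91. Female control livers held between 0.184 and 1.72 CPM at all times. On the HF/HS diet females held 3.13, 3.67, 4.20, 4.63 and 6.22 CPM after 20 weeks, 6.64, 16.7, 22.0, 23.2 and 24.8 CPM after 40 weeks and 13.1, 15.5, 22.4, 24.0 and 27.6 CPM after 60 weeks. In females every HF/HS liver was above every control of the same time.

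Muc13, the transmembrane mucin gene (chromosome 16, 33794037 to 33819934), had 0 counts in all 5 male controls after 20 weeks, while the HF/HS livers held 0.577, 0.809, 1.32, 13.6 and 14.4 CPM. Animals 411 and 413 were the high ones; they were also the highest of this group for Sprr1a, Fam83a, Meltf, Ttc39a, Vmn2r51 and Gal3st1. Males after 40 weeks held 0.812 to 1.20 CPM on the control diet and 6.49, 11.1, 11.6, 12.5 and 13.9 CPM on the HF/HS diet. After 60 weeks the controls held 0.0770 to 1.48 CPM and the HF/HS livers 0.253, 3.96, 4.85, 7.74 and 10.6 CPM. The lowest of these, animal 91, lay inside the control range. In females the controls stayed between 0 and 1.07 CPM, and HF/HS livers held 1.67, 1.69, 3.23, 3.54 and 4.26 CPM after 20 weeks, 4.86, 10.2, 26.5, 29.2 and 36.7 CPM after 40 weeks and 7.47, 10.6, 12.3, 18.5 and 24.2 CPM after 60 weeks. Female groups did not overlap at any time. The gene overlaps an antisense gene on the other strand, Gm15657, which has no entry among the counted genes. Its reads are uncertain for the same reason as those of Fosl1.

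Sprr1a, the cornified envelope gene (chromosome 3, 92483952 to 92485895), had 0 counts in the 5 male controls after 20 weeks and 3 counts over the 5 female controls. Male HF/HS livers of that time held 1.15, 1.48, 2.20, 8.03 and 14 CPM and female ones 5.49, 5.82, 6.30, 8.16 and 9.72 CPM, at least 127-fold above the controls in males and 197-fold above in females (exact 95% interval of the ratio in females 67.1 to 959). After 40 weeks the HF/HS livers held 3.90 to 7.83 CPM in males and 4.79 to 13.7 CPM in females, against at most 1.47 and 0.133 CPM in controls. After 60 weeks the controls were higher, 0, 0.503, 0.981, 1.38 and 1.68 CPM in males and 0.242, 0.718, 0.789, 1.65 and 7.87 CPM in females, and the HF/HS livers held 0.505, 3.96, 4.57, 4.62 and 7.39 CPM in males and 3.16, 4.07, 6.60, 8.58 and 9.07 CPM in females. Both pairs of groups overlapped then, in males through animal 91 and in females through control animal 191, at 7.87 CPM. The female 60-week diet difference, a log2 fold change of 1.48 ± 0.58, was 2.86 without animal 191 and 1.12 to 1.34 without any of the other 4 controls.

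Meltf, the melanotransferrin gene (chromosome 16, 31878810 to 31899020), lies 1.90 megabases from Muc13 on the same chromosome. Male HF/HS livers held 0.0674 to 1.15 CPM after 20 weeks, 1.97 to 4.23 CPM after 40 weeks and 0.316 to 2.37 CPM after 60 weeks, and female ones 0.0727 to 1.18, 2.05 to 5.46 and 1.37 to 6.33 CPM. Control livers did not exceed 0.539 CPM in males and 1.15 CPM in females. After 20 weeks the groups of both sexes overlapped. In males 4 of 5 controls of that time had 0 counts and animal 373 held 0.333 CPM, and the log2 diet difference of 2.65 ± 0.94 was 6.01 without it.

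Gal3st1, the sulfatide synthesis gene (chromosome 11, 3983636 to 3999326), had the smallest range of diet differences, from a log2 fold change of 1.93 ± 0.53 in females after 20 weeks to 2.97 ± 0.49 in females after 60 weeks. Male HF/HS livers after 40 weeks lay close together at 6.93, 7.35, 8.04, 8.04 and 8.27 CPM, all above the controls at 0.977 to 1.99 CPM. After 20 weeks they held 0.577, 0.661, 1.01, 3.17 and 4.50 CPM, and the lower 2 were inside the control range of 0 to 0.798 CPM. Female HF/HS livers held 1.05 to 2.20 CPM after 20 weeks, 1.84 to 5.96 CPM after 40 weeks and 2.66 to 5.18 CPM after 60 weeks, above controls that did not exceed 0.984 CPM.

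Ttc39a (chromosome 4, 109406623 to 109444745) ranged from 0.509 to 12 CPM on the HF/HS diet and from 0.0747 to 3.10 CPM on the control diet. Male groups overlapped after 20 and 60 weeks, through control animal 373 (1.13 CPM) and HF/HS animal 91 (0.758 CPM), and female groups overlapped after 20 weeks. The antisense gene Ttc39aos1 begins 0.467 kb from it and was called higher in all 6 diet comparisons, with log2 fold changes of 2.33 to 4.15, beside 2.07 to 3.57 for Ttc39a. The annotated genes of this pair overlap by 0 bases, unlike Fosl1 and Ccdc85b. Reads of the pair stay uncertain, because the annotation and strand setting used for counting are not named.

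Vmn2r51 (chromosome 7, 10087198 to 10105741) had 25 counts over the 30 control livers and 475 over the 30 HF/HS livers. In females after 40 weeks controls had 0 counts and HF/HS livers 0.648, 1.07, 1.27, 1.59 and 1.66 CPM, a level at least 28.1-fold higher. In males after 40 weeks the livers held 0 to 0.221 CPM against 0.846 to 1.33 CPM. Its neighbour Vmn2r52, 47.5 kb away, had 20 and 163 counts on the control and HF/HS diets and was called higher in 3 of 6 comparisons. Among all 121 other type 2 vomeronasal receptor genes in the table only Vmn2r52 passed the filter, and 90 had no count in any HF/HS liver. Receptors of this family are similar in sequence, so single members are uncertain.

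Beside the members, the groups can be set against all genes. Of the 14180 genes tested, 14.3% were called higher on the HF/HS diet in males after 20 weeks, 21.2% after 40 weeks and 15.5% after 60 weeks, and in females 9.53%, 15.0% and 19.4%, and all 9 members were among the called in each since they were chosen so. In 4 cases that choice rested on single libraries. Fosl1 left the called genes in males after 40 weeks without any 1 library of the 2 groups other than HF/HS animal 512, and after 60 weeks without HF/HS animal 101. Meltf left them in males after 20 weeks without any control other than animal 373 or without HF/HS animal 411 or 413. Sprr1a left them in females after 60 weeks without any control other than animal 191 or without HF/HS animal 111, 112 or 122, and in DESeq2. Lower calls made up 14.5%, 15.2% and 12.5% in males and 10.7%, 13.3% and 17.6% in females. HF/HS and control livers did not overlap for 5, 9 and 1 of the 9 genes in males after 20, 40 and 60 weeks, where the background was 6.82%, 18.7% and 4.44% of genes, and for 7, 9 and 8 of 9 in females, where it was 5.09%, 12.5% and 11.1%. Ubd was the only one of the 9 with no overlap in all 6 comparisons, as were 6 genes of 14180. Ranked by the smallest of the 6 log2 diet differences among the 185 genes, the members stood at places 1 (Ubd, 3.14), 3 (Muc13, 2.96), 5 (Fam83a, 2.86), 6 (Vmn2r51, 2.79), 7 (Meltf, 2.64), 8 (Fosl1, 2.49), 10 (Ttc39a, 2.07), 13 (Gal3st1, 1.93) and 30 (Sprr1a, 1.48). Between the first and the last of these stood 21 genes that are not members. Those in the first 13 places were Cidec, a lipid droplet protein gene (3.10), the chemokine gene Cxcl5 (2.91), Ttc39aos1 (2.33), Mmp24 (1.94) and the cystine transporter gene Slc7a11 (1.94), and the others filled places 14 to 29, from Themis (1.88) to Cntnap1 (1.48).

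**Figure D1:**
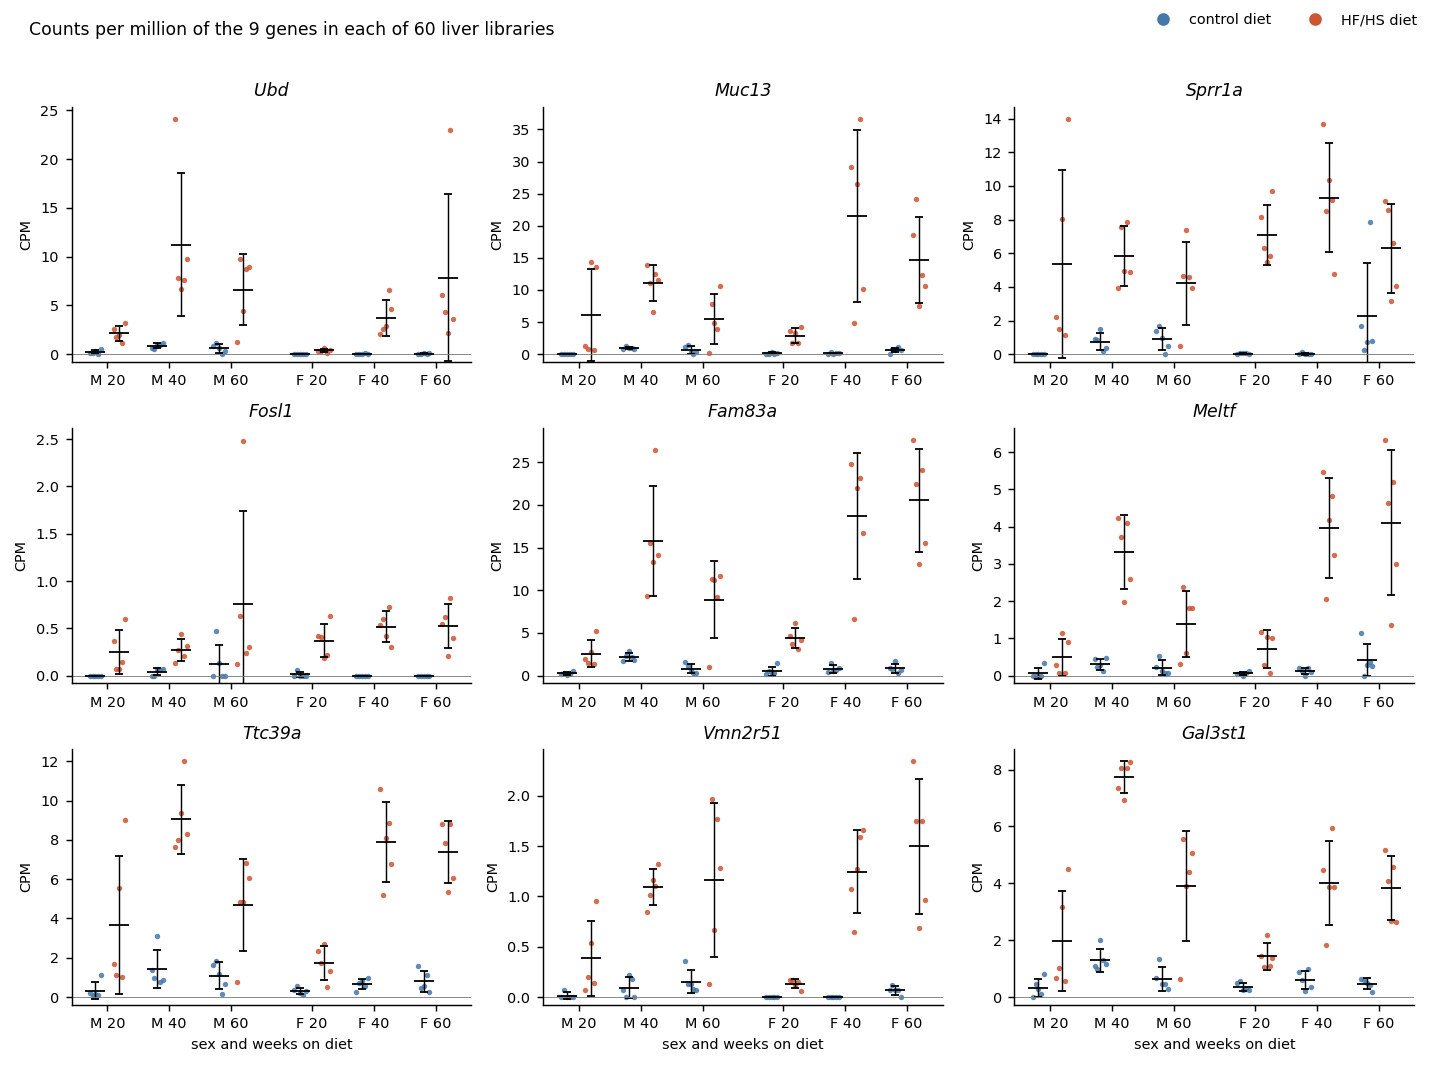
Normalised counts (CPM) of each of the 9 genes in the 60 libraries, by sex (M, F) and weeks on the diet; points are animals, black marks are group means with the SD over 5 animals, cut off at the lower axis. HF/HS livers are low after 20 weeks and higher after 40 weeks for most genes, Sprr1a is already between 5.49 and 9.72 CPM in females after 20 weeks, and HF/HS male animal 91 is the low point after 60 weeks.

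The next question was when on the HF/HS diet the genes rose. The selection did not use this contrast between HF/HS groups. It did use the HF/HS values of each time, so shares of all genes stand beside the 9 as a description only. From 20 to 40 weeks 6 of the 9 genes rose in males, where 9.46% of all genes tested were called higher, and 7 of 9 rose in females, where 9.25% were. The median log2 fold change of the 9 was 1.44 in males and 2.19 in females, beside 0.03 and -0.0013 for all genes tested. Ubd rose by a log2 fold change of 2.38 ± 0.49 in males and 3.20 ± 0.61 in females (edgeR's quasi-likelihood test, adjusted p = 0.000591 and 0.000395). Fam83a rose by 2.60 ± 0.41 and 2.09 ± 0.39 (adjusted p = 1.52e-05 and 0.000258, edgeR), and Meltf by 2.69 ± 0.55 and 2.47 ± 0.53 (adjusted p = 0.000596 and 0.00114, edgeR). Gal3st1 rose by 1.94 ± 0.40 in males and 1.47 ± 0.42 in females. Vmn2r51 rose by 1.44 ± 0.48 and 3.14 ± 0.56, and Ttc39a by 1.28 ± 0.44 and 2.19 ± 0.47. Muc13 rose in females, by 2.90 ± 0.59, and stood at 0.84 ± 0.55 in males, where animals 411 and 413 were already high after 20 weeks; with the animal number range as a covariate the male value was 2.12 (adjusted p = 0.0391, edgeR). Sprr1a and Fosl1 did not pass in either sex, with log2 fold changes of 0.10 ± 0.54 and 0.08 ± 0.73 in males and 0.40 ± 0.52 and 0.46 ± 0.61 in females. Male control means also rose over this step, which was not tested. They went from 0.262 to 2.16 CPM for Fam83a, 0.332 to 1.42 for Ttc39a and 0.325 to 1.30 for Gal3st1. The male log2 diet difference went from 3.23 to 2.86 for Fam83a, 3.36 to 2.68 for Ttc39a and 4.14 to 3.40 for Vmn2r51. It went from 2.54 to 2.56 for Gal3st1, 3.14 to 3.70 for Ubd and 2.65 to 3.41 for Meltf. The 20-week value of Meltf rests on control animal 373, since the other controls of that group had 0 counts. Without that animal it was above the 40-week value, so no direction is read for Meltf. In females the fitted diet difference was larger after 40 weeks for the 7 genes that rose. For Vmn2r51 the female controls held 0 counts at both times, and for Ubd 0 and 2 counts. Their fitted differences therefore rest on the floor.
The male calls of Ttc39a and Vmn2r51 were narrow. The adjusted p of Ttc39a in males was 0.0367 and rose to 0.0574 in DESeq2, to 0.0556 with the animal number range as a covariate and to 0.125 without animal 261, and that of Vmn2r51 was 0.0339 and rose to 0.120 without animal 261. Each was lost when any of 6 libraries was left out singly, animals 261, 271, 412, 521, 522 or 523. Without female HF/HS 40 weeks animal 482 the rise of Gal3st1 in females was 1.26 with an adjusted p of 0.0527. The bile duct marker list moved over the same step, with 9 of its 11 tested genes higher in males and 8 in females; its summed levels are given further on, and its part in the result was not tested.

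From 40 to 60 weeks 0 of the 9 genes passed edgeR's test in either sex, where 25.2% of all genes were called in males and 13.6% in females. In males 7 of the 9 were below their 40-week level, with log2 fold changes of -0.76 for Ubd, -1.02 for Muc13, -1.25 for Meltf and -0.98 for Gal3st1; 5 genes had an unadjusted p under 0.05 and the lowest adjusted p was 0.0516, for Meltf. Fosl1 stood at 1.49 ± 0.62 and passed without animal 91 (1.76, adjusted p = 0.0285, edgeR), 251 or 252, and with the animal number range as a covariate (1.86). Meltf passed without animal 521 or 92 (-1.38 and -1.52), and Gal3st1 without animal 92 (-1.13). In females 1 gene, Ubd, had an unadjusted p under 0.05 (1.08 ± 0.46, adjusted p = 0.105), and it passed without animal 121 (1.29, adjusted p = 0.0486, edgeR). DESeq2 called 0 genes in either sex.

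**Figure D2:**
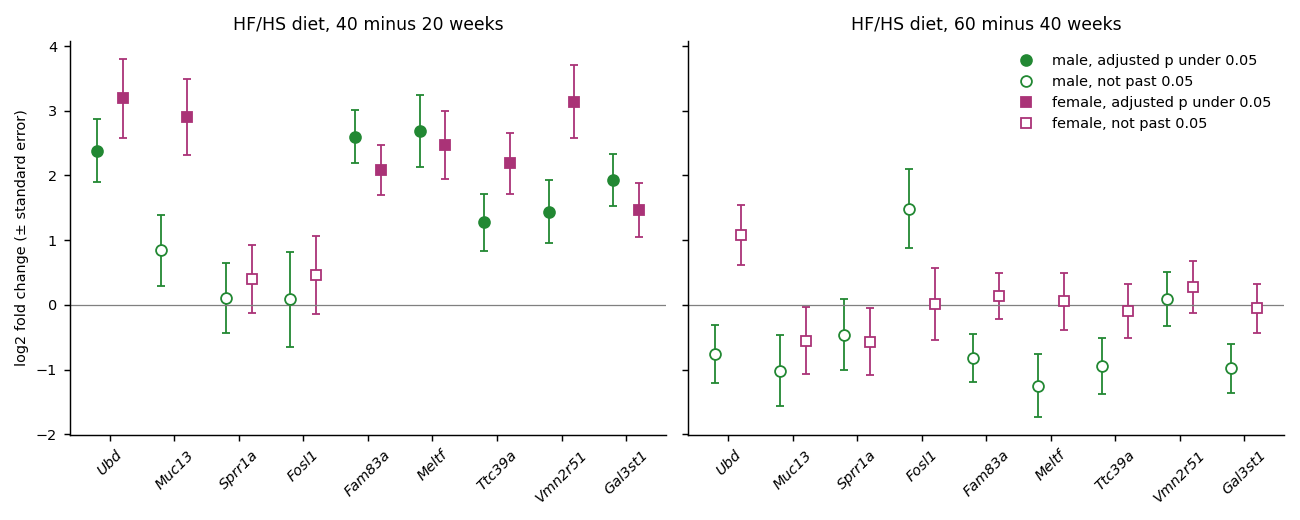
Log2 fold change with standard error (derived from the F statistic) between time points on the HF/HS diet for the 9 genes, from 20 to 40 weeks (left) and from 40 to 60 weeks (right), by sex with 5 animals a group. Filled marks passed an adjusted p of 0.05. In the left panel 6 genes in males and 7 in females are filled, and in the right panel 0 are.

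On the control diet the question was whether the genes are also higher in older animals. Since the selection favours genes that are low in all control groups, these values describe the chosen genes only. With only the control groups of this comparison fitted, 0 of the 9 genes passed the filter in either sex. They could be tested only because the HF/HS groups, where they are high, were in the same fit. The adjusted p-values and shares of all genes below are therefore a description only. From 20 to 60 weeks 3 of 9 genes rose in males, Muc13, Sprr1a and Vmn2r51, where 18.3% of all genes were called higher, and 2 rose in females, Sprr1a and Meltf, where 13.8% were. In males Sprr1a went from 0 counts to 70 over 5 livers, at least 21.1-fold higher (adjusted p = 0.00367, edgeR), and Muc13 from 0 to 52 counts, at least 15.7-fold higher (adjusted p = 0.0231, edgeR). Vmn2r51 went from 1 to 12 counts, a ratio of 10.9 with an exact 95% interval of 1.61 to 464, and its call (adjusted p = 0.0423) was lost without any of animals 181, 371, 372, 373 or 11. The call of Muc13 was lost without animal 21 (adjusted p = 0.0612). In females Sprr1a went from 3 to 156 counts, a ratio of 62.5 with an interval of 21.0 to 306 (adjusted p = 0.000193, edgeR), 110 of the 156 from animal 191.
Meltf in female controls rose by a log2 fold change of 2.61 ± 0.96 (adjusted p = 0.0379), but stood at 1.73 without animal 31 (adjusted p = 0.255), and the call was also lost without animal 202, 203, 381 or 382. In male controls Meltf went from 1.45 to 4.80 without animal 373 and then passed (adjusted p = 0.0393), as did Ttc39a, from 1.62 to 2.97. Fosl1 in male controls, 0 against 9 counts, passed without animal 11, 23 or 171 (4.29 to 4.35), and Ttc39a also without animal 23 (1.88). DESeq2 called 6 of the 9 genes in males and 3 in females. After 60 weeks the control livers of both sexes thus held Sprr1a counts in 9 of 10 animals. Cell cycle genes were also higher in older male controls, with 8 of 12 called, and AP-1 family genes with 10 of 14; their part in these values was not tested.

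Between the sexes on the HF/HS diet, Ubd was the gene that differed at 20 and 40 weeks. It was lower in females after 20 weeks (0.388 ± 0.191 against 2.13 ± 0.798 CPM, SD, n = 5 each; log2 fold change -2.41 ± 0.64, adjusted p = 0.00379, edgeR) and after 40 weeks (-1.60 ± 0.46, adjusted p = 0.0113, edgeR), where 23.9% and 15.8% of all genes were called in either direction and 1 of the 9 each time. Ttc39a also passed at 20 weeks without male animal 271 or 412 (-1.32 and -1.33), and Fam83a without animal 413 (1.22); Gal3st1 passed at 40 weeks without the 4 libraries that stand apart (-0.94). On the control diet Ubd was also lower in females, with 6 counts over 15 livers against 124 over 15 male livers, which was not tested. On the HF/HS diet the Ubd groups did not overlap at 20 weeks, with the highest female at 0.671 and the lowest male at 1.15 CPM. At 40 weeks the difference was -1.09 without male animal 512 (adjusted p = 0.117), which held 24.1 CPM. At 60 weeks Ubd stood at 0.25 ± 0.44, and 2 other genes were higher in females, Fam83a (1.21 ± 0.36, adjusted p = 0.0203) and Meltf (1.56 ± 0.48, adjusted p = 0.0242), where 11.3% of genes were called. Both of these calls were lost without male animal 91 (0.91 and 1.30, adjusted p = 0.0804 and 0.0953, edgeR), and also without female animal 111 or 122; that of Meltf was lost without male animal 101 as well (1.35), and Muc13 passed without male animal 252 (1.77).

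The diet difference can be compared between the sexes and between times, although these contrasts are built from the differences the selection used. For the sex difference of the diet effect 0 of 9 genes passed at 20, 40 or 60 weeks by edgeR, where 0.628%, 3.77% and 0.853% of all genes were called. At an unadjusted p under 0.05 the counts were 0, 5 and 2, and DESeq2 called 0, 2 and 1. Nothing is read from these counts. After 40 weeks all 9 differences were larger in females on the fitted scale, with a median of 2.94 on the log2 scale, lowest for Gal3st1 at 0.12 and highest for Sprr1a at 4.98 ± 1.57. The female controls of that time held 0 counts of Fosl1 and Vmn2r51 and 2 each of Ubd and Sprr1a. Fitted values of these genes, among them the median and the highest, rest on that floor. The HF/HS level itself was higher in females for 6 of the 9 genes, and only Ubd passed, as lower. From 20 to 60 weeks the fitted change of the diet difference of Sprr1a was -7.23 in males, a value that rests on a control group with 0 counts and is no bound, and -5.86 ± 1.30 in females, and that of Muc13 in males, also over such a group, was -6.63. The share of all genes called for this change was 9.25% in males and 18.7% in females. HF/HS livers held Sprr1a after 20 and 60 weeks at 5.37 ± 5.57 and 4.21 ± 2.46 CPM in males and 7.10 ± 1.79 and 6.30 ± 2.64 CPM in females (SD, n = 5), while the controls went from 0 to 0.910 ± 0.675 CPM and from 0.0363 ± 0.0332 to 2.25 ± 3.18 CPM.

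Whether the genes vary together from liver to liver was asked within groups, which the selection did not use. For each of the 30 HF/HS libraries the mean log2 CPM of its group was subtracted, and the deviations were correlated for 36 pairs of members and for 81 pairs of a member and a marker list score, with permutation within groups and Benjamini-Hochberg adjustment over all 117 relations. All 36 pairs were positive, with a median Pearson's r of 0.71 and a range of 0.19 to 0.93, and 28 passed. Pairs of other genes were not among the 117 relations, so whether this is particular to the 9 genes was not tested. The closest pair was Muc13 and Gal3st1 (r = 0.93, Spearman's rho = 0.85, permutation adjusted p = 0.00017), followed by Ttc39a and Gal3st1 (r = 0.89, rho = 0.87, permutation adjusted p = 0.00022) and Fam83a and Gal3st1 (r = 0.89, rho = 0.87, permutation adjusted p = 0.00022). Leaving out the 2 libraries farthest from the median gave r = 0.88, 0.80 and 0.81 for these pairs and a median of 0.63 over the 36.
For Ubd, r with the other genes was 0.27 to 0.63, the highest with Meltf. Of the 8 pairs of Fosl1, 1 passed, that with Sprr1a (r = 0.59, rho = 0.47, permutation adjusted p = 0.0426, and r = 0.42 without the 2 farthest libraries). Fosl1 had only 106 counts over 15 male and 125 over 15 female HF/HS livers. The part of this low depth in its lower r was not tested. Without male animal 91, low for all 9 genes, 24 pairs passed and the median r was 0.64. Centring within the ranges of animal numbers as well left 24 pairs and a median of 0.69. All libraries share the composition of a whole liver piece, and removing the hepatocyte marker score left 24 pairs and a median of 0.61.

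The members also varied with markers of particular cells, although other genes were not correlated with these lists for comparison. Scores of bile duct cell markers (such as Krt19, Epcam and Sox9) passed with 8 of the 9 genes, with a median r of 0.80, highest for Fam83a and Gal3st1 at 0.90 and lowest for Fosl1 at 0.44. Stellate cell and matrix genes passed with 8 (median 0.80), fetal liver and liver tumour genes with 8 (0.79) and lipid-associated macrophage markers with 8 (0.72). Without animal 91, bile duct markers passed with 7 (median 0.69), where Ubd no longer passed (r = 0.37). Stellate cell and matrix genes then passed with 8 (0.71), fetal liver and liver tumour genes with 7 (0.68) and lipid-associated macrophage markers with 7 (0.62). Hepatocyte markers were lower where the members were higher, with 7 of 9 passing and a median r of -0.47; centred within the ranges of animal numbers 3 of 9 passed, Sprr1a, Fam83a and Ttc39a, with a median of -0.44. Cell cycle genes passed with 5 (0.52), and with 3 under that centring or without animal 91. General macrophage markers, T and natural killer cell markers and interferon response genes each passed by Pearson's r with a single member, Ubd (r = 0.59, 0.60 and 0.68, and 0.54, 0.41 and 0.48 without the 2 farthest libraries). Spearman's rho of Ubd with T and natural killer cell markers did not pass (0.39, permutation adjusted p = 0.0900). Meltf came nearest otherwise, with r = 0.37 for macrophage and 0.42 for interferon genes (permutation adjusted p = 0.0604 for both), and passed for macrophage markers when centred within the number ranges (0.43, permutation adjusted p = 0.0358). In these 3 lists the median r over the 9 genes was 0.19, 0.16 and 0.31, in that order.

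**Figure D3:**
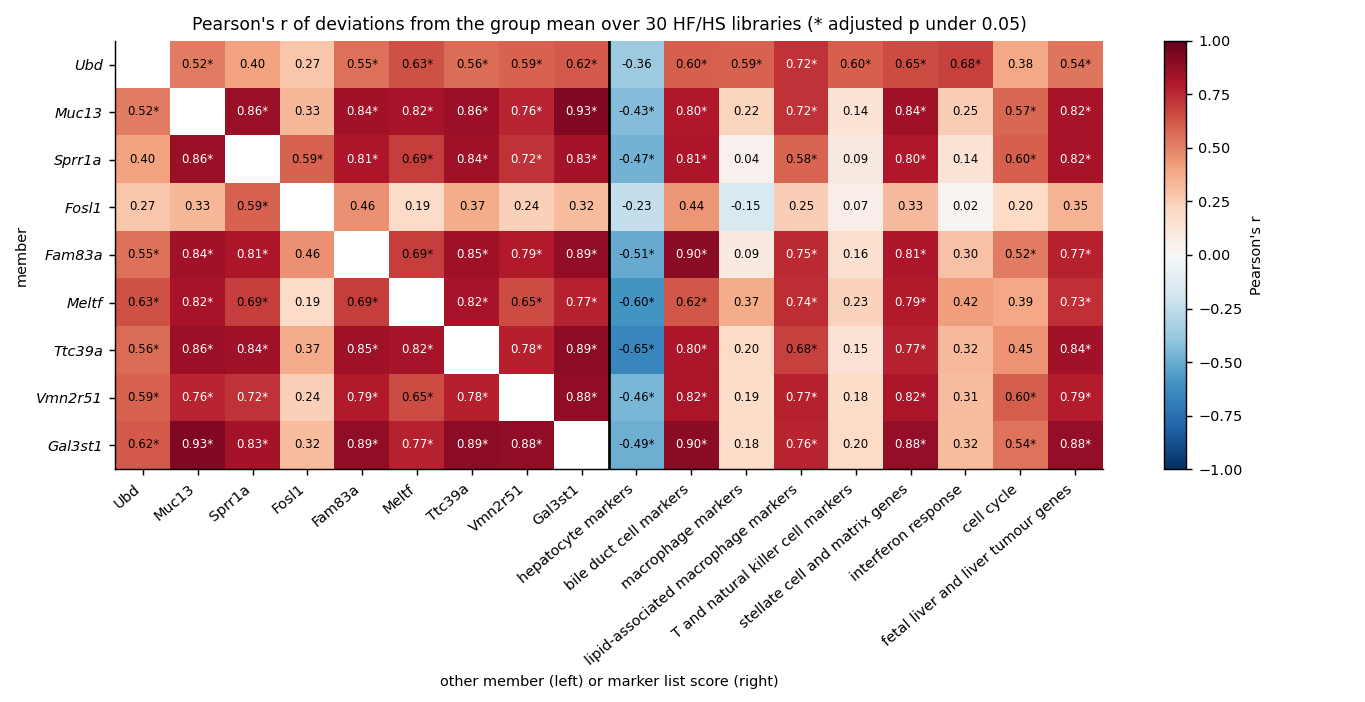
Pearson's r over 30 HF/HS libraries, after subtraction of group means, between each of the 9 genes and the other 8 (left of the line) or 9 marker list scores (right); asterisks mark an adjusted p under 0.05 over 117 relations. The left block is positive throughout, the row of Fosl1 is pale, and the row of Ubd is the only 1 with asterisks at macrophage, T and natural killer cell and interferon lists.

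Levels of these marker lists moved with diet and time beside the members. Of 11 tested bile duct markers 4, 9 and 9 were called higher on the HF/HS diet in males after 20, 40 and 60 weeks and 0, 8 and 10 in females, and 0 were lower. Their summed level was 50.6 to 86.5 CPM in male controls and 71.3 to 98.4 CPM in HF/HS males after 20 weeks, 61.9 to 69.6 against 121 to 184 CPM after 40 weeks and 67.0 to 104 against 84.1 to 233 CPM after 60 weeks. In females it was 75.5 to 92.3 against 78.4 to 101 CPM, 90.1 to 106 against 148 to 169 CPM and 86.8 to 103 against 177 to 248 CPM. The female groups overlapped after 20 weeks. Animal 91 had the lowest bile duct level of its group (84.1 CPM) and animal 373 the highest of its own (86.5 CPM). No listed bile duct marker was at 0 in a whole group. The part of bile duct cells in the members' values was not tested.
Hepatocyte markers were lower for 6, 9 and 8 of 13 genes in males and 2, 8 and 9 in females, with a summed level of 28401 to 44213 CPM in controls and 22907 to 35363 CPM on the HF/HS diet. Their median log2 fold change was -0.16 to -0.48, where the median of all genes tested lay between -0.0143 and 0.0122 in the 6 comparisons. Bile duct markers had a median of 0.40 to 2.63. Lipid-associated macrophage markers were higher for 7, 9 and 6 of 10 genes in males and 4, 6 and 6 in females (median 0.68 to 2.39), while at most 1 was lower, led by Gpnmb, whose log2 fold change was 1.17 to 8.0. Their summed level was highest in its group in control animals 373 and 31 (718 and 714 CPM) and overlapped between diets in 4 of 6 comparisons. It was 697 to 842 CPM on the HF/HS diet against 443 to 519 CPM in controls in males after 40 weeks, and lay below the controls in females after 20 weeks, at 476 to 539 CPM against 591 to 896 CPM. Stellate cell and matrix genes were higher for 7, 7 and 6 of 10 in males and 2, 6 and 7 in females, with 2 lower in females after 20 weeks (median 0.37 to 0.99), and Col1a1 was higher in all 6 comparisons (1.46 ± 0.45 to 3.96 ± 0.44). Cell cycle genes were higher for 11, 8 and 6 of 12 in males and 7, 8 and 11 in females (median 1.22 to 2.95). General macrophage markers were higher for 4, 9 and 8 of 12 in males and 0, 1 and 7 in females, with 3 lower in females after 40 weeks, and T and natural killer cell markers for 2, 4 and 4 of 6 in males and 0, 0 and 5 in females. Fetal liver and liver tumour genes were higher for 3, 7 and 5 of 10 in males and 2, 5 and 7 in females, where 2 were lower after 60 weeks. Gut epithelium markers were called higher for 1 or 2 of 6 tested genes in each comparison and lower for 1 after 20 weeks in each sex; Krt20 was higher in females at all 3 times (3.10 to 8.03). The summed gut level was 78.4 to 274 CPM in male controls after 20 weeks, highest in animal 373, and 71.1 to 210 CPM in all other groups, and the defining markers Cdx1, Cdx2 and Sis had 0 counts in every group. Of 10 pancreas genes all were lower in males after 60 weeks and in females after 40 weeks, and 0 were higher in any. The parts of these cells in the members' values were not tested.

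**Figure D4:**
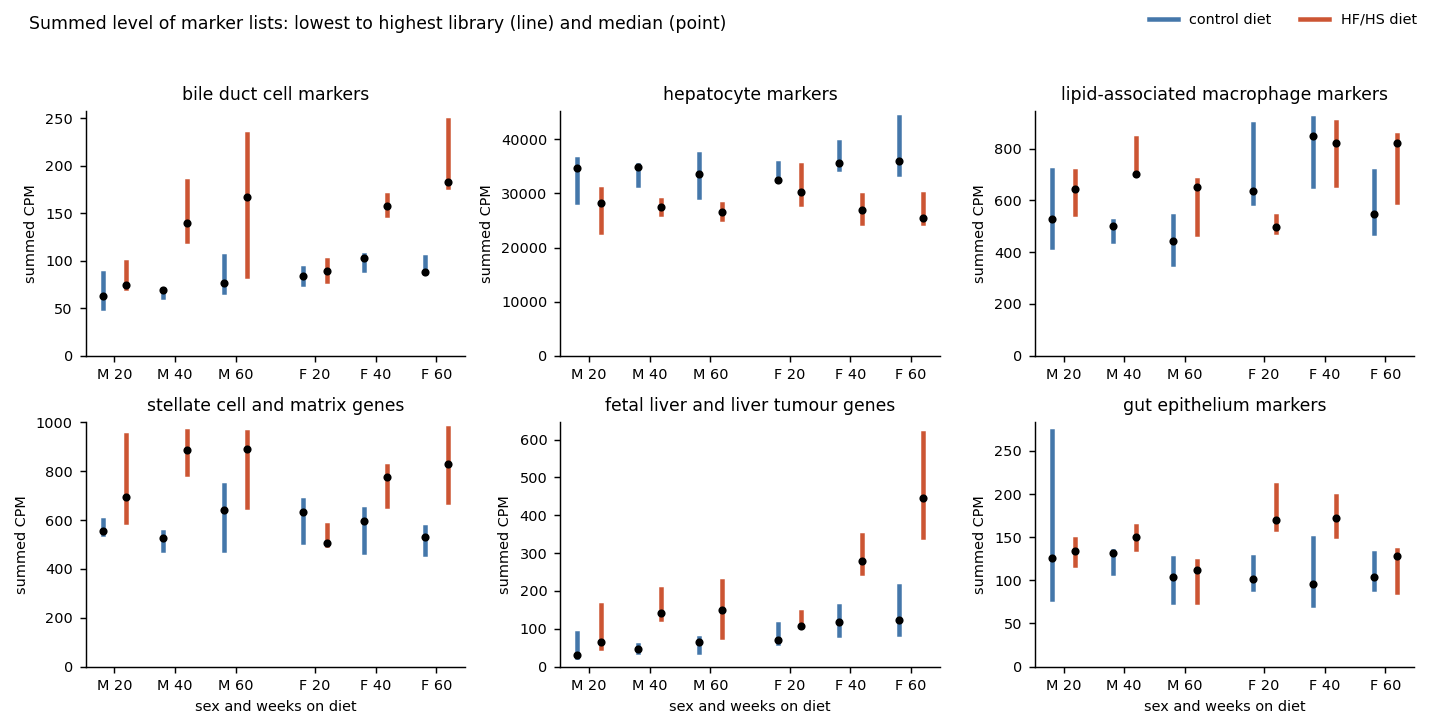
Summed CPM of 6 marker lists by sex (M, F) and weeks on the diet, with a line from the lowest to the highest of 5 libraries and a point at the median. The bile duct lines of the HF/HS diet lie above those of the control diet after 40 weeks in both sexes (121 to 184 against 61.9 to 69.6 CPM in males) and overlap after 20 weeks.

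The pathways of the members were followed through lists of other genes. Around Ubd, the NF-kB and TNF targets were called higher for 10, 13 and 11 of 19 genes in males after 20, 40 and 60 weeks and for 3, 10 and 13 in females, with at most 1 lower and a median of 0.10 to 1.28, and with the chemokine gene Ccl2 higher in all 6 (1.33 ± 0.43 to 3.67 ± 0.47). Interferon response genes were higher for 16, 14 and 6 of 22 in males and 0, 2 and 5 in females (median -0.02 to 0.88). In females after 20 weeks Ubd was counted in 5 of 5 HF/HS livers and 0 of 5 controls while 0 of 22 interferon genes passed. Ciita, the class II transactivator, stood at 2.16 ± 0.31 in males and 0.69 ± 0.29 in females after 20 weeks, and Cxcl9 at 3.06 ± 0.56 and 0.86 ± 0.47. The 12 genes of FAT10 conjugation and antigen processing had medians between -0.06 and 0.12; 3, 3 and 1 were higher in males and 1, 0 and 0 in females, and at most 1 was lower, with the higher ones including Tap1 (0.53 ± 0.13) and Psmb9 (0.50 ± 0.12) in males after 20 weeks.
Around Fosl1, other AP-1 family genes were higher for 8, 7 and 1 of 14 in males and 2, 4 and 3 in females (median -0.04 to 0.66), and at most 2 were lower; Atf3 reached 2.88 ± 0.43 and Fosb 2.20 ± 0.64 in males after 20 weeks. Genes of ERK pathway output went both ways, with 3, 5 and 5 of 17 higher and 4, 1 and 1 lower in males and 0, 3 and 5 higher and 3, 7 and 3 lower in females (median -0.13 to 0.17). Emp1 stood at 1.86 to 2.04 in males and 0.79, 2.44 and 3.03 in females, whereas the feedback inhibitor gene Spry4 fell by 1.52 in females after 40 weeks and 1.55 after 60 weeks. Of the FAM83 family 5 other genes were tested and 0, 1 and 3 were higher in males and 1, 2 and 2 in females, among them Fam83b (2.17 ± 0.45 in males and 2.98 ± 0.52 in females after 60 weeks).

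For Muc13 and Sprr1a few relatives were expressed. Muc1 was the only other mucin gene tested, and was called higher in males after 40 weeks (1.95 ± 0.39) and in females after 40 and 60 weeks (1.15 ± 0.38 and 0.97 ± 0.36). Of 25 other listed cornified envelope and squamous epithelium genes 24 were in the table and only Tgm1 passed the filter; it was lower in females after 20 and 40 weeks (-1.56 ± 0.38 and -1.23 ± 0.38). Of the other 23, which were not tested, 12 had 0 counts in all 60 libraries and the remaining 11 had more counts over the HF/HS livers than over the controls. The best counted were Lor with 93 against 89, Tgm3 with 50 against 10, Krt17 with 46 against 6, Ivl (involucrin) with 43 against 2, Krt5 with 34 against 1 and Sprr3 with 29 against 0, where Sprr1a had 1212 and 2024 in HF/HS males and females and 121 and 161 in their controls.
Around Gal3st1, genes of sulfatide metabolism were higher for 2, 4 and 4 of 6 in males and 1, 2 and 5 in females (median 0.19 to 0.60), and at most 1 was lower. Ugt8a, which makes the galactosylceramide that Gal3st1 sulfates, was higher after 40 and 60 weeks in males (2.04 ± 0.46 and 1.67 ± 0.42) and females (1.77 ± 0.48 and 1.94 ± 0.44). Around Meltf, transferrin family and iron handling genes were higher for 1, 0 and 0 of 12 in males and 3, 3 and 3 in females, with at most 1 lower (median -0.18 to 0.05), and the receptor gene Tfr2 was lower in males after 20 and 40 weeks and in females after 40 and 60 weeks (-0.76 ± 0.13 in females after 40 weeks). Ttc39b, a relative of Ttc39a, was lower in all 6 comparisons (-0.24 ± 0.09 to -0.44 ± 0.09).

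Likeness was measured as Pearson's r of log2 CPM over all 60 libraries, as a ranking only, since diet separates the libraries. Genes with a provisional symbol, such as Gm numbers, Rik or clone names, were left out of the ranking. The closest non-member genes were Ttc39aos1 for Ttc39a (0.97), Eps8 for Vmn2r51 (0.95), Col1a1 for Ubd (0.94), Anxa2 for Muc13 (0.93), Cntnap1 for Fam83a (0.93), Cidec for Gal3st1 (0.93), Tgfbr2 for Meltf (0.91), Nrg1 for Sprr1a (0.90) and Tnfrsf12a for Fosl1 (0.84). Anxa2 was among the closest 3 of Muc13, Sprr1a and Fosl1, and Cidec among those of Muc13, Fam83a and Gal3st1. Compared per kilobase of exon on the HF/HS diet, median levels in males were highest for Ubd (7.21 CPM per kb) and Sprr1a (5.74), then Fam83a (2.93), Muc13 (2.55), Gal3st1 (2.20) and Ttc39a (1.23), and lowest for Meltf (0.442), Vmn2r51 (0.363) and Fosl1 (0.133). In females they were highest for Sprr1a (10.1) and Fam83a (4.90), then Muc13 (3.35), Ubd (2.73), Gal3st1 (1.32), Ttc39a (1.23), Meltf (0.725), Vmn2r51 (0.364) and Fosl1 (0.208). In males the order of the group means of Ubd and Sprr1a turned with time, within the spread between livers. They were 2.29 ± 0.857 and 6.66 ± 6.91 CPM per kb after 20 weeks, and 7.09 ± 3.90 and 5.23 ± 3.05 after 60 weeks (SD, n = 5). In females after 60 weeks they were 8.40 ± 9.20 and 7.81 ± 3.27 CPM per kb, with the Ubd mean raised by animal 122 at 22.9 CPM. The medians of that female group, not divided by exon length, were 4.29 CPM for Ubd and 6.60 CPM for Sprr1a. Neighbouring orders such as those of Fam83a, Muc13 and Gal3st1 in males lie within the spread between livers.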

How the data were processed

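RNA of flash-frozen liver was made into ribosome-depleted, stranded total RNA libraries, per the labels' protocols. The authors deposited 1 table of whole-number read counts per gene for 60 samples, on build mm10, as the submitters' processing notes name it. No aligner, counter, annotation or strand setting is named in the sources used here. Groups came from the sample labels, and p-values rest on animals as labelled, 5 a group.

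The deposited counts, 10923963 to 20942463 per library, were fitted with edgeR 4.0.16 (R 4.3.3) by the quasi-likelihood test over 12 groups, with TMM scaling (factors 0.898 to 1.12), a filter at a minimum count of 10 (total 15) and Benjamini-Hochberg adjustment over 14180 genes at 0.05. The model was tested on simulated data. CPM in the text is the count normalised to the library's TMM-scaled total; covariation used log2 CPM with a prior count of 2 and 100000 permutations within groups. DESeq2 1.42.0, other scalings, filters, covariates and sample sets were alternatives. Gene positions came from GENCODE M21 (mm10). Other genes are named from 26 lists of pathways and cell markers by size and adjusted p, and by likeness. The 9 genes and the lists were chosen with earlier results of these data known.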

Additional observations from a re-analysis of the deposited data

Results flagged for a closer look

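Among 79 groups of 5 livers with at least 20 counts, 8 held a liver far from the other 4 by Dixon's test, which chance alone marks in about 1 of 20 groups. Ubd was high in male HF/HS 40 weeks animal 512 (24.1 CPM, the next 9.79) and in female HF/HS 60 weeks animal 122 (22.9 CPM, the next 6.03). Sprr1a was high in female control 60 weeks animal 191 (7.87 CPM, the next 1.65), and Fosl1 in male HF/HS 60 weeks animal 101 (2.48 CPM, the next 0.636). Fam83a was low in male HF/HS 60 weeks animal 91 (1.01 CPM, the next 9.21) and high in female control 20 weeks animal 383 (1.43 CPM, the next 0.488). Ttc39a was high in male control 20 weeks animal 373 (1.13 CPM, the next 0.215) and in male control 40 weeks animal 501 (3.10 CPM, the next 1.39).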

How the results depend on the processing

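No paired analysis was possible because each animal number occurs in 1 group only. Of the diet values of single genes under settings other than leaving out 1 library, 358 stayed on their side of the threshold and 4 lost the call. The count of the 9 genes called moved as follows, and the cause was not tested. From 40 to 60 weeks on the HF/HS diet in males it went from 0 to 1 with the animal number range as a covariate, with own libraries only and without the 4 libraries that stand apart, a set chosen after seeing the data; leaving out 1 library gave 0 to 2, and 0 to 1 in females. For age on the control diet it went in males from 3 to 5 without the 4 libraries and 6 in DESeq2 (2 to 5 leaving out 1), and in females from 2 to 1 without a filter and 1 without the 4 libraries (1 to 2 leaving out 1). For sex on the HF/HS diet it went from 1 to 2 after 20 weeks without the 4 libraries (1 to 2 leaving out 1), from 1 to 3 with own libraries and 2 without the 4 after 40 weeks (0 to 1), and from 2 to 0 with own libraries and 1 in DESeq2 after 60 weeks (0 to 3). For the sex difference of the diet effect it went from 0 to 2 after 40 weeks with own libraries, without the 4 libraries and in DESeq2 (0 to 1 leaving out 1), and from 0 to 1 after 60 weeks in DESeq2. For the change of the diet effect in males it went from 1 to 0 with own libraries and 2 in DESeq2 (1 to 2 leaving out 1). With own libraries 0 of the 9 genes passed the filter for age on the control diet in either sex, so that setting gives no value there; elsewhere it left 4 to 9 of them. The contrasts of diet effects are built from the values the genes were chosen on, and nothing is read from their counts. No value past the threshold changed sign under these settings. Over all genes tested, the number called for diet went with own libraries from 4096 to 1771 in males after 20 weeks, from 3974 to 2015 in males after 60 weeks and from 2872 to 1445 in females after 20 weeks. With own libraries the number called for age on the control diet went from 5212 to 2550 in males and from 3853 to 1933 in females, that from 40 to 60 weeks on the HF/HS diet in females from 1933 to 3556, and that for sex on the HF/HS diet after 40 weeks from 2236 to 3868. From 20 to 40 weeks on the HF/HS diet it went in males from 2470 to 1490 without animal 261, and in females from 2180 to 3295 without the 4 libraries and 1365 without animal 482. For the change of the diet effect in males it went from 1312 to 346 with own libraries and 872 without control animal 373. For the sex difference of the diet effect after 20 weeks it went from 89 to 53 without a filter, 28 with own libraries, 764 without the 4 libraries and 176 in DESeq2, and leaving out 1 library of 8 moved it to between 34 and 616, the last without male control animal 373. After 40 weeks it went from 534 to 2409 with own libraries, 1339 without the 4 libraries and, leaving out 1 of 5 libraries, 260 to 344. After 60 weeks it went from 121 to 68 with own libraries, 216 without the 4 libraries, 205 in DESeq2 and 75 without female HF/HS animal 122. Depth limits Fosl1 and Vmn2r51 most, with 12 and 20 counts over the 15 male and 1 and 5 over the 15 female control livers.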
